A study of Mus musculus with 12 samples.

Results

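*Igf1*, which encodes the secreted insulin-like growth factor 1, and *Igf2bp3*, which encodes an RNA-binding protein of the IGF2BP family, were followed through the RNAseq libraries of sorted airway macrophages (AMs). The pair was chosen by its measured difference between *Scnn1b*-Tg and WT AMs, so that the size and direction of this difference are given as a description and were not tested. The count table has 19161 rows without gene names. Of these, 1999 could be paired with a gene through the authors' mean normalized counts, and both genes, 2 of 2, were among them and passed the filter on low counts.

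AMs positive for CD45, Siglec-F and CD11c were sorted from lungs of 6-week-old female *Scnn1b*-Tg mice and of WT littermates, both on a C57BL/6 background and without further treatment. The transgene carries *Scnn1b*, a subunit of the epithelial sodium channel, under the club cell secretory protein promoter, which acts in airway epithelium, and the mice serve as a model of mucus obstruction. There were 6 libraries per genotype, called Tg1 to Tg6 and WT1 to WT6 here. By the batch labels, batches 1, 2 and 3 held 1 library of each genotype (Tg1 and WT1, Tg2 and WT2, Tg3 and WT3), and batch 4 held 3 of each. In batch 4, the genotypes came from different flow cells and the difference between flow cells and that between genotypes cannot be told apart. The total per library was 40259958 to 51832335 counts in batch 4 and 65764040 to 121813289 counts in batches 1 to 3. The sources describe paired-end and single-end baseline libraries made with different kits, without saying which library is of which kind.

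IGF1 acts through the IGF1 receptor, a tyrosine kinase that signals through insulin receptor substrates and PI3 kinase, and macrophages are a known source of this factor in injured and remodelling tissue. The IGF2BP proteins bind mRNAs, *Igf2* mRNA among them, and affect their stability, translation and transport, also at sites of N6-methyladenosine. *Igf2bp3* is best known from embryonic tissue and tumours and is low in most adult tissues.

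*Igf1* (ENSMUSG00000020053) lies on the plus strand of mm10 at chr10:87858265-87937042, with 8 annotated transcripts, all coding, and 9904 bp of exon sequence. Levels are given in CPM, that is, counts scaled to the total of each library with TMM factors. In *Scnn1b*-Tg AMs, *Igf1* was at 131 CPM in Tg1, 72.1 in Tg2, 68.4 in Tg3, 48.0 in Tg4, 36.7 in Tg5 and 45.2 in Tg6. In WT AMs, it was at 31.2 CPM in WT1, 29.2 in WT2, 9.48 in WT3, 17.7 in WT4, 14.4 in WT5 and 16.3 in WT6. The genotypes did not overlap, Tg1 stood far above the other *Scnn1b*-Tg libraries, and WT1 and WT2 were the highest WT libraries. Such separation, with every *Scnn1b*-Tg library above every WT library, was found in 0.200% of the 16972 rows tested, and nothing was read from it because the gene was chosen on this contrast. On average, this amounted to 67.0 ± 34.5 CPM in *Scnn1b*-Tg and 19.7 ± 8.62 CPM in WT AMs (SD, n = 6 each). The fit with batch as a block gave *Igf1* a log2 fold change of 1.74 ± 0.20 (standard error). In bulk libraries, more RNA per cell and more cells that express the gene cannot be told apart.

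*Igf2bp3* (ENSMUSG00000029814) lies on the minus strand at chr6:49085223-49214957, with 5 annotated transcripts, of which 1 is coding, and 8159 bp of exon sequence. In *Scnn1b*-Tg AMs, *Igf2bp3* was at 31.8 CPM in Tg1, 20.9 in Tg2, 16.4 in Tg3, 19.7 in Tg4, 10.5 in Tg5 and 14.0 in Tg6. In WT AMs, it was at 9.87 CPM in WT1, 13.7 in WT2, 7.87 in WT3, 6.66 in WT4, 5.01 in WT5 and 6.24 in WT6. Here the genotypes overlapped, since Tg5 was below WT2, although each *Scnn1b*-Tg library was above the WT libraries of its own batch. On average, *Igf2bp3* was at 18.9 ± 7.36 CPM in *Scnn1b*-Tg and 8.22 ± 3.14 CPM in WT AMs (SD, n = 6 each), and the fit gave 1.21 ± 0.19 (standard error) as its log2 fold change. Both genes were among the 60 of 16972 rows, 0.354%, that passed the thresholds of the study in edgeR's quasi-likelihood test, and among the 50 of these with higher values in *Scnn1b*-Tg AMs, 0.295% of the rows tested. Having been chosen on this contrast, the pair takes no support from these counts.

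**Figure D1:**
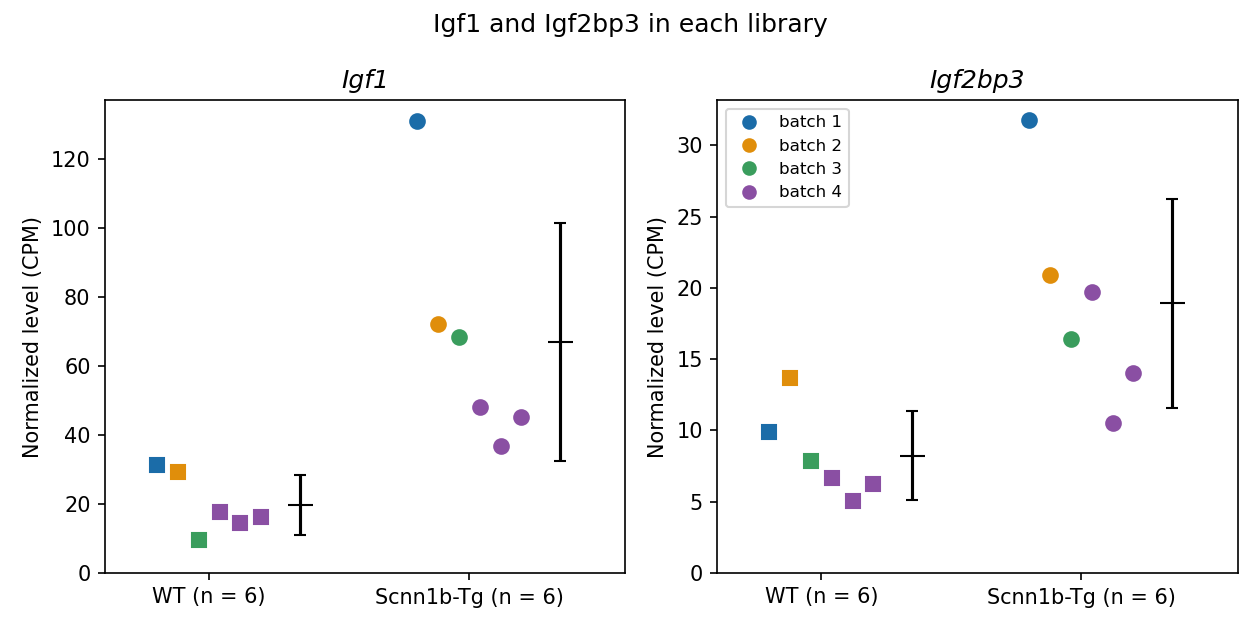
Normalized level in CPM of *Igf1* (left) and *Igf2bp3* (right) in each WT library (squares) and each *Scnn1b*-Tg library (circles), coloured by batch, with the mean and SD of each genotype (n = 6) beside the points. The lowest *Scnn1b*-Tg value of *Igf1*, 36.7 CPM, lies above the highest WT value, 31.2 CPM, whereas *Igf2bp3* overlaps between 10.5 and 13.7 CPM.

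Per kilobase of exon sequence, which allows levels to be set against each other, the levels in *Scnn1b*-Tg AMs were 6.77 ± 3.48 CPM for *Igf1* and 2.31 ± 0.902 CPM for *Igf2bp3* (SD, n = 6 each). In WT AMs, the levels per kilobase were 1.99 ± 0.870 CPM for *Igf1* and 1.01 ± 0.384 CPM for *Igf2bp3* (SD, n = 6 each). *Igf1* had the higher level per kilobase in each library apart from WT3, where both were close, at 0.957 CPM for *Igf1* and 0.965 CPM for *Igf2bp3*. Among all rows tested, the mean level of *Igf1* in log2 CPM stood at percentile 72.0 and that of *Igf2bp3* at percentile 54.3, without correction for length. Raw counts of *Igf1* lay between 543 in WT3 and 12959 in Tg1, and those of *Igf2bp3* between 286 in WT5 and 3132 in Tg1. Both genes were therefore far above the counts at which detection limits a comparison.

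The counts were made without strand, and both loci overlap annotated genes on the opposite strand. *Malsu1*, on the opposite strand at chr6:49073795-49086751, shares 1529 bp of exon sequence with *Igf2bp3*, and counts from these bases cannot be assigned to either gene. *Igf1os*, an antisense gene at chr10:87826377-87863381, overlaps the *Igf1* locus but shares 0 bp of exon sequence with it. The processed pseudogene *Gm18010* lies within *Igf2bp3* at chr6:49172759-49172960 and likewise shares 0 bp with its exons.

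The difference between genotypes had the same direction in every batch for both genes, which the choice of the pair favours. On the log2 scale, *Igf1* was higher in *Scnn1b*-Tg AMs by 2.07 in batch 1, 1.30 in batch 2, 2.85 in batch 3 and 1.42 in batch 4. For *Igf2bp3*, the differences were 1.68 in batch 1, 0.61 in batch 2, 1.05 in batch 3 and 1.26 in batch 4. Batch 2 had the smallest difference for both genes, and the large difference of *Igf1* in batch 3 went with the lowest WT value. In batch 4, the batch with replicates, *Igf1* was at 43.3 ± 5.88 CPM in *Scnn1b*-Tg and 16.1 ± 1.65 CPM in WT AMs (SD, n = 3 each). *Igf2bp3* was at 14.7 ± 4.64 CPM and 5.97 ± 0.856 CPM there (SD, n = 3 each).

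Whether the genotype difference itself changed between batches 1 to 3 and batch 4 was not used in choosing the pair and could be tested. The log2 difference between genotypes was lower by 0.65 in batch 4 for *Igf1*, at an estimate of −0.65 (standard error 0.35, adjusted p = 0.800, quasi-likelihood test of edgeR, Benjamini-Hochberg adjustment). For *Igf2bp3* the estimate was 0.19 (standard error 0.39, adjusted p = 0.992, same test). Neither gene passed the test, and of all rows 19, or 0.112%, did. The standard errors limit the size of change between batches that could be detected.

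Levels in the batches were a further measure that the choice of the pair had not used. Both genes were higher in batches 1 to 3 than in batch 4. The log2 difference in level was 0.71 for *Igf1* (standard error 0.20, adjusted p = 0.0116, edgeR's quasi-likelihood test) and 0.70 for *Igf2bp3* (standard error 0.19, adjusted p = 0.0102, same test). This was no particular property of the pair, since 59.3% of all rows tested differed in level between these batches at an adjusted p-value under 0.1. *Igf1* in WT3 went the other way, below the WT libraries of batch 4, while *Igf2bp3* in WT3 was above them. Within *Scnn1b*-Tg AMs, the batches separated for *Igf1* and overlapped for *Igf2bp3*, where Tg4 stood above Tg3.

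For *Igf1*, 23.9% of the variance in log2 CPM between the 12 libraries went with batch and 68.3% with genotype, which left 7.82% as residual. For *Igf2bp3*, the shares were 28.3% for batch, 60.3% for genotype and 11.5% for the residual. Over all rows tested, the medians were 67.0% for batch and 2.15% for genotype. The high share of genotype follows from how the pair was chosen.

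Whether both genes moved together was examined within each genotype, over 6 libraries each, as 2 relations. In *Scnn1b*-Tg AMs, Pearson's r of log2 CPM was 0.90 (exact permutation p = 0.0153, two-sided, adjusted p = 0.0306) with a rank correlation (Spearman's rho) of 0.94 (exact permutation p = 0.0167, adjusted p = 0.0333). Libraries high in *Igf1* were high in *Igf2bp3*, with Tg1 at the top and Tg5 at the bottom for both genes. Without these 2 libraries, the farthest from the median of *Igf1*, r was 0.46 (exact permutation p = 0.375), over 4 libraries of a narrower range, and the relation no longer passed the test. It did not pass without Tg1 alone (r = 0.76, exact permutation p = 0.133) or without Tg6 alone (r = 0.89, exact permutation p = 0.0583), and it did without Tg5 alone (r = 0.87, exact permutation p = 0.0417). In WT AMs, r was 0.65 (exact permutation p = 0.156, adjusted p = 0.156) and rho was 0.60 (exact permutation p = 0.242, adjusted p = 0.242), which did not pass the test. WT3, lowest in *Igf1* but not in *Igf2bp3*, stood off this relation, and without it r was 0.93 (exact permutation p = 0.0250).

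These relations include the shift in level between batches. Within batch 4, which has no such shift, r was 0.94 in *Scnn1b*-Tg and 0.98 in WT AMs, but over 3 libraries each, too few for a test. After the mean of the other genotype in the same batch had been subtracted from each library, r was 0.26 in *Scnn1b*-Tg (exact permutation p = 0.660) and 0.22 in WT AMs (exact permutation p = 0.656). In batches 1 to 3 this subtracts a value from 1 library, with its own error, WT3 among them. Whether the genes moved together apart from the batch level was therefore not settled by these libraries. With effects of batch and genotype both removed, Tg4 was high in *Igf2bp3* by 0.50 and at −0.01 in *Igf1* on the log2 scale. Tg3 was high in *Igf1* by 0.55 and at −0.07 in *Igf2bp3*, whereas Tg5 was low in both, at −0.39 and −0.40. In batches 1 to 3, which hold 1 library per genotype, such residuals of the *Scnn1b*-Tg and the WT library mirror each other by construction.

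**Figure D2:**
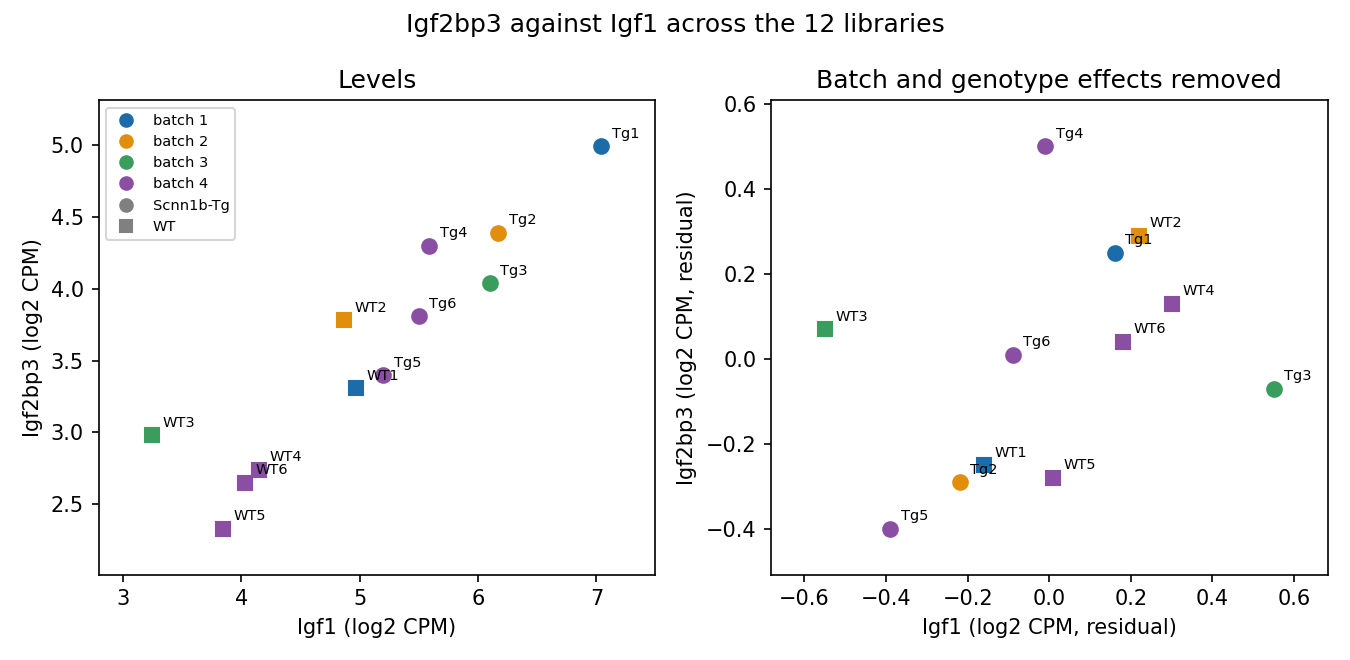
*Igf2bp3* against *Igf1* in log2 CPM for each of the 12 libraries (left), and the same after removal of batch and genotype effects (right), with circles for *Scnn1b*-Tg, squares for WT and colours for batches. On the left, Tg1 is highest in both genes. On the right, Tg3, WT3 and Tg4 lie away from a common line.

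Across the 12 libraries, the named genes with a pattern most like that of *Igf1*, after subtraction of batch means, were *Ptgir*, *Mreg*, *Cxcr1*, *Mmp9* and *Gsn*, with r between 0.96 and 0.97. For *Igf2bp3* they were *Ms4a8a*, *Acp5*, *Ctsa*, *Borcs8* and *Mreg*, with r between 0.96 and 0.98. *Mreg* was the 1 gene on both lists. *Igf2bp3* was at rank 56 among 1976 named genes in likeness to *Igf1*, and *Igf1* at rank 45 in likeness to *Igf2bp3*, at r = 0.91 in both cases. These values are descriptions, since genes selected on the same contrast share the step between genotypes, and the median r of the named genes with *Igf1* was 0.49 against 0.01 over all rows.

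With genotype means subtracted as well, r between *Igf1* and *Igf2bp3* fell to 0.36, at rank 473 for *Igf1* and at rank 449 for *Igf2bp3*. The genes most like *Igf1* were then *Surf4*, *Lap3*, *Patj*, *Lasp1* and *Gpt2*, with r between 0.92 and 0.93, and none of them was among those named before. For *Igf2bp3* they were *Ms4a8a*, *1700037H04Rik*, *Zfp763*, *Cdyl2* and *Snrpa*, with r between 0.89 and 0.91. *Ms4a8a* was thus first for *Igf2bp3* with and without the step between genotypes.

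The ligand *Igf1* was set beside a list of 64 genes of insulin and IGF signalling, of which 4 besides *Igf1* had a named row. All named genes had small p-values in the authors' own comparison of the genotypes, so that counts over them carry this selection. Among all 1977 named genes with a symbol, 1097 had higher values in *Scnn1b*-Tg AMs and the median log2 fold change was 0.20. Of the 4, 0 passed the thresholds with edgeR, while 3 reached an unadjusted p-value under 0.05, as did 1467 of all 16972 rows. DESeq2 called 1 higher and 1 lower, against 248 of all rows, and limma-voom called 0, against 97. The estimates were higher for *Socs3* (1.02), a feedback inhibitor of cytokine signalling, and for the adaptor *Sh2b2* (0.41). They were lower for the PI3 kinase subunit *Pik3r1* (−0.85) and for the secreted protease *Htra1* (−2.46), which was under 1 CPM in every library. The median of the 4 was −0.22. The IGF1 receptor and the IGF binding proteins had no named row and were not analysed here.

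*Igf2bp3* was set beside a list of 38 genes of its family, its partners and the N6-methyladenosine machinery, of which 8 besides *Igf2bp3* had a named row. The estimate was lower in *Scnn1b*-Tg AMs for 8 of 8, opposite to *Igf2bp3*, with a median log2 fold change of −0.23. Among the 1977 named genes, 1097 had higher values and the median was 0.20. With edgeR 0 of the 8 passed the thresholds, 6 reached an unadjusted p-value under 0.05 (1467 of 16972 over all rows), and DESeq2 and limma-voom likewise called 0. The paralogue *Igf2bp2* was at 12.7 ± 3.55 CPM in *Scnn1b*-Tg and 18.7 ± 6.33 CPM in WT AMs (SD, n = 6 each), at an estimated log2 fold change of −0.55 (standard error 0.29). *Hnrnpu*, which encodes a nuclear RNA-binding protein, was lower in every *Scnn1b*-Tg library than in any WT library, but by a small amount (−0.24, standard error 0.05). With edgeR it met the threshold for the adjusted p-value but not that for the fold change. Separation with higher values in *Scnn1b*-Tg libraries was found in 0.200% of all rows, and the share with lower values is not given here. The estimates of the other 6 genes, *Syncrip*, *Matr3*, *Zc3h13*, *Alkbh5*, *Ythdf2* and *Ythdf3*, lay between −0.29 and −0.14.

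Of a list of 33 growth and matrix factors of macrophages, which gives *Igf1* a context among secreted products, 13 had a named row. With edgeR 4 of the 13 passed the thresholds, all higher in *Scnn1b*-Tg AMs, and 0 were lower, against 60 of the 1977 named genes and 0.354% of all rows. The median log2 fold change was 0.61. These were the metalloelastase *Mmp12* (1.82, standard error 0.23), the cytokine *Gdf15* (1.10, standard error 0.19), the metalloproteinase inhibitor *Timp2* (0.61, standard error 0.10) and the glycoprotein *Gpnmb* (0.55, standard error 0.11). *Mmp12*, with 62.1 CPM in Tg1, was 1 of 7 among the 13 genes that, like *Igf1*, had their highest *Scnn1b*-Tg value in that library. *Gdf15* was not, since it was at 11.2 CPM in Tg1 and reached 93.1 CPM in batch 4. With 1 library left out, 1 to 3 of the 13 were called (1 without Tg1), and without batches 1 and 2 it was 0. *Tgfb2* had the lowest estimate of the list, at −0.77 (standard error 0.17), and passed the thresholds with DESeq2 and limma-voom but not with edgeR.

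**Figure D3:**
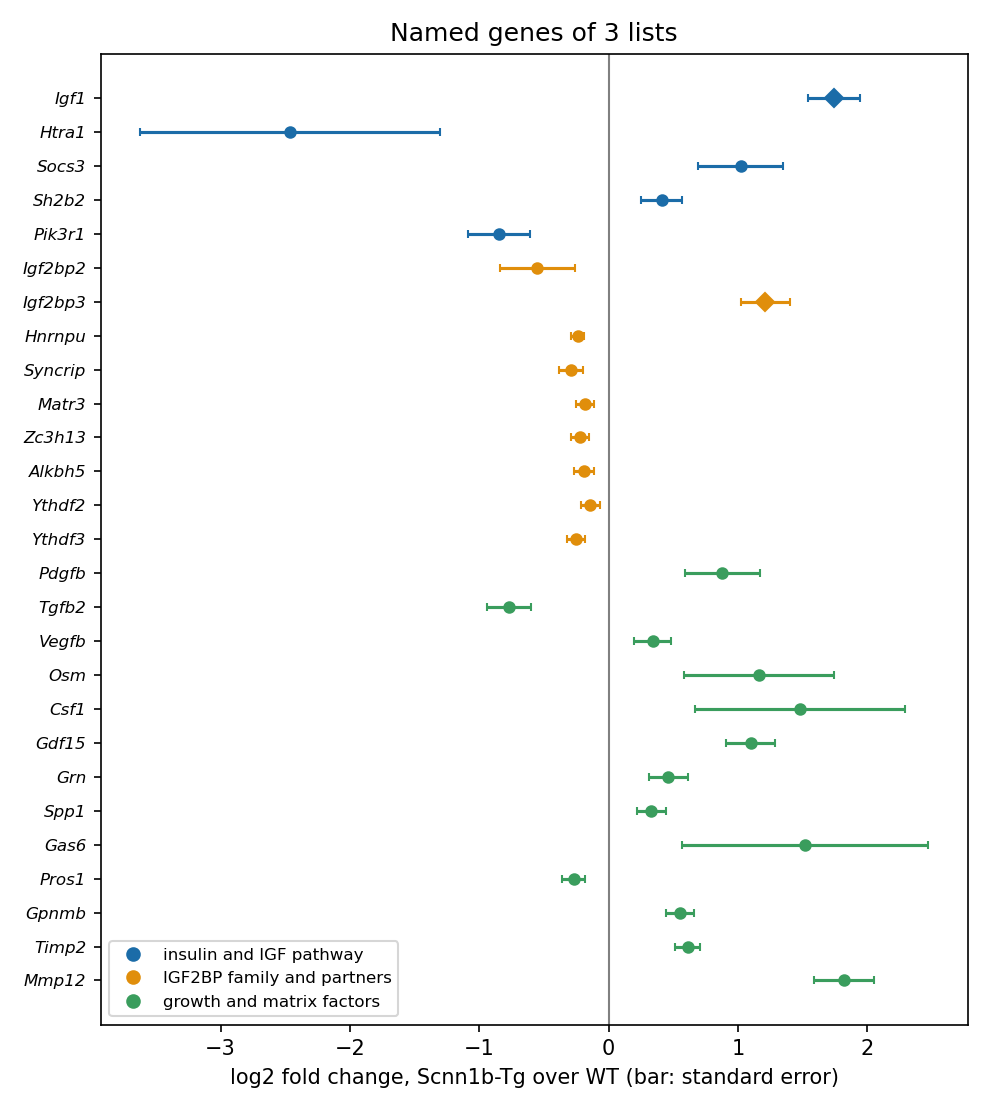
Log2 fold change of *Scnn1b*-Tg over WT AMs with its standard error for the named genes of the 3 lists, with diamonds for *Igf1* and *Igf2bp3* and colours for lists. *Igf1* (1.74) and *Igf2bp3* (1.21) lie to the right, and the other genes of the IGF2BP list lie between −0.55 and −0.14.

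The identity of the cells was examined through markers. Of 12 AM markers, 7 had a named row, and the most abundant, *Chil3*, was at 21400 CPM or more in every library. The sum of the 7 was highest in Tg1, at 65400 CPM and mostly through *Chil3*, against at most 38400 CPM in the other libraries. Of the 7, 4 had their highest *Scnn1b*-Tg value in Tg1. *Siglecf*, used for sorting, was present in all libraries. It was at 239 CPM (Tg1) to 367 CPM in batches 1 to 3 and at 395 to 585 CPM in batch 4. *Krt79* was lower in *Scnn1b*-Tg AMs (−0.65, standard error 0.07) and was the 1 of the 7 that passed the thresholds (0.354% of all rows did). All 7 reached an unadjusted p-value under 0.05, as did 1467 of all 16972 rows, and named rows carry the selection by p-value described above. Of the 7 estimates, 3 were higher and 4 lower in *Scnn1b*-Tg AMs. *Ptprc*, which encodes CD45, was lowest in Tg1, at 389 CPM, and at 748 CPM or more in the other libraries. In each of the 4 batches, *Siglecf* and *Ptprc* were lower in the *Scnn1b*-Tg libraries. Their log2 fold changes of −0.31 for *Siglecf* and −0.30 for *Ptprc* did not pass the thresholds. *Siglecf* met the threshold for the adjusted p-value but not that for the fold change, and *Ptprc* met neither. The gene of CD11c, also used for sorting, had no named row. *Scnn1b* itself was at 72.0 CPM in Tg1, 54.1 in Tg2, 1.88 in Tg3, 1.15 in Tg4, 4.35 in Tg5 and 2.70 in Tg6. In WT libraries it was at 11.6 CPM in WT1, 12.8 in WT2, 1.48 in WT3, 0 in WT4 and WT5 and 0.297 in WT6. It was thus higher in the *Scnn1b*-Tg libraries of each batch and, in both genotypes, highest in batches 1 and 2. Its log2 fold change (2.96, standard error 0.81) passed the thresholds with DESeq2 (248 of all rows did) but not with edgeR. *Igf1* was also high in WT1 and WT2, while its largest difference between genotypes was in batch 3 (2.85), where *Scnn1b* was low in both. The part of *Scnn1b* in the result was not tested.

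Markers of other cells are given by library beside *Igf1* and *Igf2bp3*. Of 8 dendritic cell markers, 3 had a named row, with *Mgl2* the most abundant. *Mgl2* and *Cd209a* are also known from alternatively activated macrophages, so that their source is not given by the counts. How many dendritic cells remained after the sort was not measured here. The summed level of the 3 markers was 85.9 CPM in Tg1, the library highest in both *Igf1* and *Igf2bp3*. It was 7.56 CPM in Tg2, 2.90 in Tg3, 0.800 in Tg4, 3.13 in Tg5 and 5.42 in Tg6. In WT libraries, the sum was 7.59 CPM in WT1, 1.61 in WT2, 1.26 in WT3, 0.399 in WT4, 0.298 in WT5 and 0.427 in WT6, and *Flt3* was at 0 in WT3 to WT6 and in Tg2 and Tg4. The sum was higher in *Scnn1b*-Tg libraries in each of the 4 batches, and Tg1 stood apart in it as it did in *Igf1*. With edgeR 0 of the 3 passed the thresholds and 2 reached an unadjusted p-value under 0.05 (1467 of 16972 over all rows). DESeq2 called 2 higher (248 of all rows in either direction) and limma-voom 1 (97 of all rows). The part of these markers in the result was not tested. Without Tg1, the log2 fold change was 1.67 for *Igf1* and 1.11 for *Igf2bp3*, and *Igf2bp3* was then not past the thresholds of the study.

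The fibroblast list had 1 named row of 5, *Col1a2*, at 5.49 CPM in Tg1, 3.43 in Tg2, 8.77 in WT1 and 6.67 in WT2, and at 0.410 CPM or less in the other libraries, with 0 in Tg4, Tg5 and WT3 to WT6. *C1qb*, of monocytes and interstitial macrophages, was highest in Tg2 and WT2, at 12.9 and 14.2 CPM, and at most 0.644 CPM in batch 4. The 2 named rows of 11 in that list summed to between 163 and 331 CPM in *Scnn1b*-Tg and between 121 and 281 CPM in WT libraries. This was mostly through *Csf1r*, which AMs express too. Within each batch, the sum was higher in the *Scnn1b*-Tg libraries, and *Csf1r* (0.24, standard error 0.09) did not pass the thresholds. *Gzma*, the 1 named row of 6 T and NK cell markers, was highest in WT1, at 7.63 CPM in Tg2 and 7.59 CPM in WT2, and at most 0.250 CPM in batch 4. *Col1a2*, *C1qb* and *Gzma* were at or near 0 in batch 4. The sums of the dendritic cell and of the neutrophil markers were higher there in all *Scnn1b*-Tg than in all WT libraries. The same held for the sum of the monocyte and interstitial macrophage markers, for *C1qb* itself and for *Foxj1* of the epithelial markers. The share of all rows separated in this way in batch 4 is not given here. A fit to this batch alone gave a log2 fold change of 1.42 for *Igf1* and 1.30 for *Igf2bp3*. In this fit *Igf1* was past the thresholds and *Igf2bp3* was not. Without batches 1 and 2, an alternative added after these markers had been seen, the log2 fold change was 1.77 for *Igf1* and 1.24 for *Igf2bp3*. Again *Igf2bp3* was not past the thresholds. The part of these markers in the result was not tested.

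Of 8 neutrophil markers 2 had a named row. *Mmp8*, the more abundant, passed the thresholds with higher values in *Scnn1b*-Tg AMs, against 0.354% of all rows, in 9 of the 12 fits that left out 1 library, but not without Tg1 or without batches 1 and 2. *Cxcr2* passed with DESeq2 but not with edgeR, and overlapped between genotypes. The sum of both was 102 CPM in Tg1, 87.9 in Tg2, 82.5 in Tg3, 78.1 in Tg4, 71.7 in Tg5 and 114 in Tg6, against 68.0 in WT1, 49.2 in WT2, 50.9 in WT3, 49.3 in WT4, 52.9 in WT5 and 42.0 in WT6. The genotypes did not overlap in this sum, which was highest in Tg6 and not in Tg1. How many neutrophils remained after the sort was not measured here, and the part of these markers in the result was not tested. *Ighm* of 5 B cell markers was highest in Tg2 (23.2 CPM), and *Foxj1* of 9 epithelial markers was at most 2.30 CPM. *Cldn5*, the 1 named row of 4 endothelial markers, was at 8.17 CPM in Tg1, 6.02 in Tg2, 3.30 in Tg3, 2.48 in Tg4, 0.705 in Tg5 and 0.899 in Tg6, in the order of *Igf1* over these libraries, and at 4.65 CPM or less in WT libraries. In batch 4, *Cldn5* was lower in Tg5 and Tg6 than in any WT library of that batch. How many endothelial cells remained after the sort was not measured here, and the part of *Cldn5* in the result was not tested. The lists of eosinophils, red blood cells and proliferation had no named row and were not analysed here.

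Since both genes were examined together, the 250 bases before their transcription start are shown, from RefSeq on GRCm38.p6, each in the direction of its gene. The window is chr10:87860861-87861110 on the plus strand for *Igf1*, ahead of a start within the annotated gene, and chr6:49214955-49215204 on the minus strand for *Igf2bp3*. None of the annotated *Igf1* transcripts starts directly after its window, and the nearest starts are at 87860606, before it, and 87861329, after it. Most annotated starts of *Igf1* lie before the window, so that it is not the promoter of most of its transcripts. Capitals mark matches, on either strand, to the searched motifs TGANTCA (AP-1), TTGCNNAA (C/EBP), GAGGAA (ETS and PU.1 core), TTCNNNGAA (STAT), CACGTG (E-box), and to TATAAA.
Igf1: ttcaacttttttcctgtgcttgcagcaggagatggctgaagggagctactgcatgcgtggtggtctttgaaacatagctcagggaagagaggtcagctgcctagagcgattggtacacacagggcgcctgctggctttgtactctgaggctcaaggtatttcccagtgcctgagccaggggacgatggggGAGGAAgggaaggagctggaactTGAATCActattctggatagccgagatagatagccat
Igf2bp3: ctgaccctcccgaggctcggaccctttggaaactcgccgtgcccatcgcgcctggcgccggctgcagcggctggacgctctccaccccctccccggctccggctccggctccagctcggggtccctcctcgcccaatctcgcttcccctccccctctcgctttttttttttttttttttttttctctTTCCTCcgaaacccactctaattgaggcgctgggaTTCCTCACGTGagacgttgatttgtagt

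The *Igf1* window held 1 TGANTCA match at −37 to −31 and 1 GAGGAA match at −60 to −55, counted back from the start. The *Igf2bp3* window held 2 GAGGAA matches, both on the opposite strand, at −63 to −58 and −28 to −23, and 1 CACGTG match at −23 to −18 that overlaps the second by 1 base. GAGGAA was thus the motif found in both windows, and it was present in 23.3% of 32851 promoter windows of the same length, with 2 or more matches in 3.54%. TGANTCA was present in 6.75% of the windows and CACGTG in 6.02%. No match was found in either of the 2 windows for TTGCNNAA (9.56% of windows), TTCNNNGAA (7.02%) or TATAAA (12.4%). The windows differed in base composition, with 52.8% GC and 5 CpG for *Igf1* and 60.4% GC and 21 CpG for *Igf2bp3*, against medians of 52.4% and 6 over all windows. A match describes letters in a window and says nothing of binding.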

How the data were processed

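HISAT2 (alignment to mm10) and StringTie (quantification) were used by the authors, with no regard to strand. The deposited counts are not normalized and are whole numbers that StringTie derives from the coverage of transcripts. Rows were paired with genes through the authors' mean normalized counts, a weighted sum of 12 counts, with 1999 of 1999 within a relative difference of 1e-12 and the next row at least 2.9e-07 away. The authors' fold changes and p-values in that table entered no test or estimate here. Their p-values served only to describe how the named genes were selected. Some genes of the lists are not reported here. The 2 genes and all lists were chosen with earlier results of these data known.

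Rows that passed edgeR's expression filter (16972) were tested with edgeR 4.0.16 in R 4.3.3 (TMM factors, quasi-likelihood test, Benjamini-Hochberg adjustment over all rows) with batch, 4 levels, as the block. Thresholds were 0.1 for the adjusted p-value and 0.5 for the absolute log2 fold change. DESeq2 1.42.0 and limma 3.58.1 were alternatives. The procedures were tested on simulated data. CPM used TMM factors, and log2 CPM a prior count of 2. Correlations used all permutations, 720 for 6 libraries and fewer where libraries were left out. Besides the listed genes, those named were the 5 most alike to each gene.

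Same-numbered libraries of batches 1, 2 and 3 are paired by their batch label, and their deviations from the genotype means of these batches correlated at 0.211, 0.276 and 0.482. Within batch 4 they did not (−0.0644, 0.00143 and −0.00582). Over the 30 pairs of libraries of a genotype, chi-square per row was at least 62.2, so that none of these pairs agreed within sampling noise. Correlations were held to a p-value under 0.05, levels and genotype effects to an adjusted p-value under 0.1. Gene models came from GENCODE M21.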

Additional observations from a re-analysis of the deposited data

Results flagged for a closer look

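In each genotype, the CPM of each gene named from the lists was searched for a library far from the other 5. This was the case in 17 of 96 groups, and chance alone gives about 1 in 20 where libraries are exchangeable, which leaves the batches out of account. Tg1 accounted for 6 of them. *Igf1* was at 131 CPM there, against 72.1 in the nearest *Scnn1b*-Tg library, *Grn* at 1190 CPM against 725, and *Chil3* at 59300 CPM against 32500. The dendritic cell markers *Flt3* (2.73 CPM against 0.709), *Cd209a* (35.8 against 2.07) and *Mgl2* (47.4 against 5.49) stood apart in the same library. *Igf2bp3* stood apart in no library by this measure.

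In WT2, the values were 2.01 CPM for *Socs3*, 3.44 for *Csf1*, 14.2 for *C1qb* and 1.96 for *Foxj1*. In WT1, they were 2.73 CPM for *Cd209a*, 4.42 for *Mgl2* and 4.65 for *Cldn5*. The others were *C1qb* in Tg2 (12.9 CPM), *Igf2bp2* in Tg5 (5.87 CPM), *Pros1* in Tg6 (258 CPM) and *Matr3* in WT3 (228 CPM).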

How the results depend on the processing

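The fold changes of *Igf1* and *Igf2bp3* kept their direction under the alternatives run, from 1.42 (batch 4 only) to 2.07 (batches 1 to 3 only) for *Igf1*. Leaving out 1 library gave 1.52 to 1.83 for *Igf1*, above the thresholds in 12 of 12 fits, and 1.08 to 1.32 for *Igf2bp3*, above them in 7 of 12 (not without Tg1, WT1, WT4, WT5 or WT6). *Igf2bp3* was not above them in batch 4 only or without batches 1 and 2, and neither gene was in batches 1 to 3 only. The 60 calls became 248 with DESeq2, 97 with limma-voom, 38 at an adjusted p-value under 0.05, 0 in batches 1 to 3 only, 27 without batches 1 and 2, and 22 (without Tg1) to 53 (without Tg5) with 1 library left out. They fell below 40 also without Tg2 (38), WT1 (23), WT2 (39), WT4 (32), WT5 (35) or WT6 (27). With no replicate block there were 0 calls, and with a replicate block of 6 pairs 28; both genes were above the thresholds in the second of these fits and not in the first.

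The differences in level between batches kept their direction and stayed past the test, at 0.43 (without Tg3) to 0.87 (without WT3) for *Igf1* and 0.54 to 0.83 for *Igf2bp3* with 1 library left out. The change of the genotype difference in batch 4 kept its direction for *Igf1*, from −1.01 (without Tg2 or WT2) to −0.24 (without Tg3 or WT3), while that of *Igf2bp3* ranged from −0.08 to 0.49 with 1 library left out, and was −0.04 without Tg2 or WT2 and −0.08 without Tg4. The correlation in *Scnn1b*-Tg AMs was 0.46 without the 2 farthest libraries, 0.26 with the batch level removed, and 0.76 to 0.98 with 1 library left out, no longer past the test without Tg1 or without Tg6 (0.89). That in WT AMs was 1.00 without the 2 farthest libraries (exact permutation p = 0.0417) and 0.45 to 0.93 with 1 left out. It was past the test in the first of these settings and, with 1 left out, without WT3. The first setting also leaves out WT3, and its p-value is the smallest that so few libraries can give, so that little can be read from it. Beyond numbers of libraries, the cause of these changes was not tested.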
